A study of Caenorhabditis elegans with 82 samples.

Results

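The spp genes of Caenorhabditis elegans encode saposin-like proteins. Their members were taken as every protein-coding gene whose WormBase symbol is spp- and a number. Of 31 such symbols in the WBcel235 annotation, 30 had a row among the 46748 genes of the counts table, and spp-27 was not analysed here. In the comparison of all stages, 27 of the 30 passed the filter on low counts and were tested among 18364 genes. The other 3 members, spp-26, spp-29 and spp-30, held 10, 33 and 43 counts over all 71 libraries compared and are described by level alone.

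Whole worms of N2, the laboratory wild type, were raised at 20 °C on agar plates with 1 of 4 diets and pooled for RNA. The medium is mNGM in the labels and a peptone-free medium in the methods of the study. The diets were MYb71 and MYb65, which are Ochrobactrum isolates from the natural gut community of the worm, Mix, a mixture of both isolates, and OP50, the Escherichia coli strain of laboratory cultures. MYb65 is the name in the sample labels, while the study calls its second isolate MYb237. Worms were taken at L2, L3 and L4, which are larval stages, after 6, 24 and 48 h on the plates, at Ad1 after 72 h, and on days 3 and 7 of adulthood (Ad3 and Ad7). All groups carried the same genotype, and every library stood for a pool of worms, so that a smaller share of cells of a type and less RNA per cell cannot be told apart.

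Saposin-like proteins are small, cysteine-rich helical proteins that bind and disturb lipid membranes. In mammals the saposins present sphingolipids to lysosomal enzymes, and in amoebae the related amoebapores open pores in engulfed bacteria. The C. elegans members, also called caenopores, are best known from the gut, where SPP-1, SPP-3 and SPP-5 have been studied as pore-forming antimicrobial proteins that act on the bacteria the worm eats.

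The comparisons used 71 libraries, 18 on MYb71, 17 on MYb65, 18 on Mix and 18 on OP50, with 3 in every group except MYb65 at L2, which had 2. The 71 libraries were all closest in their expression to their labelled stage. Of 11 further libraries set aside, 2 went against their label, since OP50 replicate 3 labelled L2 was closest to Ad3 and OP50 replicate 3 labelled L3 was closest to Ad7. Total counts per library ran over 10513060 to 74552875 with a median of 21700247. By the methods of the study, replicates came from separate runs of the exposure, and the treatments were assessed side by side in random order. Neither the methods nor the labels say that a replicate number marks the same run on every diet. The main fits held no term for the run. The 7 of 8 intestine markers that were matched had counts in all 71 libraries. Their summed level had a median of 5580, 8170 and 5320 CPM, counts scaled to library size, at the larval stages L2, L3 and L4, and 3520, 1730 and 1320 CPM in adults at Ad1, Ad3 and Ad7.

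The genome holds the members in part side by side. By chromosome, 4 lay on I, 2 on II, 2 on III, 5 on IV, 6 on V and 11 on X. A block of 5 members, spp-3, spp-2, spp-6, spp-4 and spp-5, filled 5386 bases of chromosome X (chrX:7314969-7320354), with no other protein-coding gene between neighbours. The gaps inside this block measured 641, 522, 526 and 1180 bases. Other direct neighbours were spp-17 and spp-23 on I, spp-10 and spp-8 on IV, spp-9 and spp-21 on X, and spp-27, spp-20, spp-26 and spp-19 on V. Most members are small genes of 2 exon blocks, as are spp-5 (WBGene00004990, chrX:7319937-7320354, minus strand) with an exonic length of 370 bases and spp-14 (WBGene00004999, chrX:7725979-7726383, plus strand) with 356. The exons of 4 members overlapped another gene, over 3.64% of the exonic length for spp-1 (with T07C4.3), 42.9% for spp-15 (with C48E7.6), 28.5% for spp-16 (with F32D8.7) and 12.1% for spp-19 (with twk-10). The library kit did not mark strand, and reads in these stretches cannot be told apart.

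The members spanned a wide range of levels. Per kilobase of exon, spp-14 had the highest mean at 1545 CPM, followed by spp-5 with 1089, spp-17 with 826, spp-3 with 289.7 and spp-2 with 264. These 5 genes held a median of 81.2% of the summed level per kilobase of the family, with 69.9% in the lowest and 90.8% in the highest library. At L2, spp-14 and spp-17 supplied the largest shares with 37.3% and 23.7%. At Ad1, spp-5 with 25.7% stood ahead of spp-14 with 19.5%. At Ad7, spp-14 alone supplied 49.7% and spp-5 a further 25.4%.

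**Figure D1:**
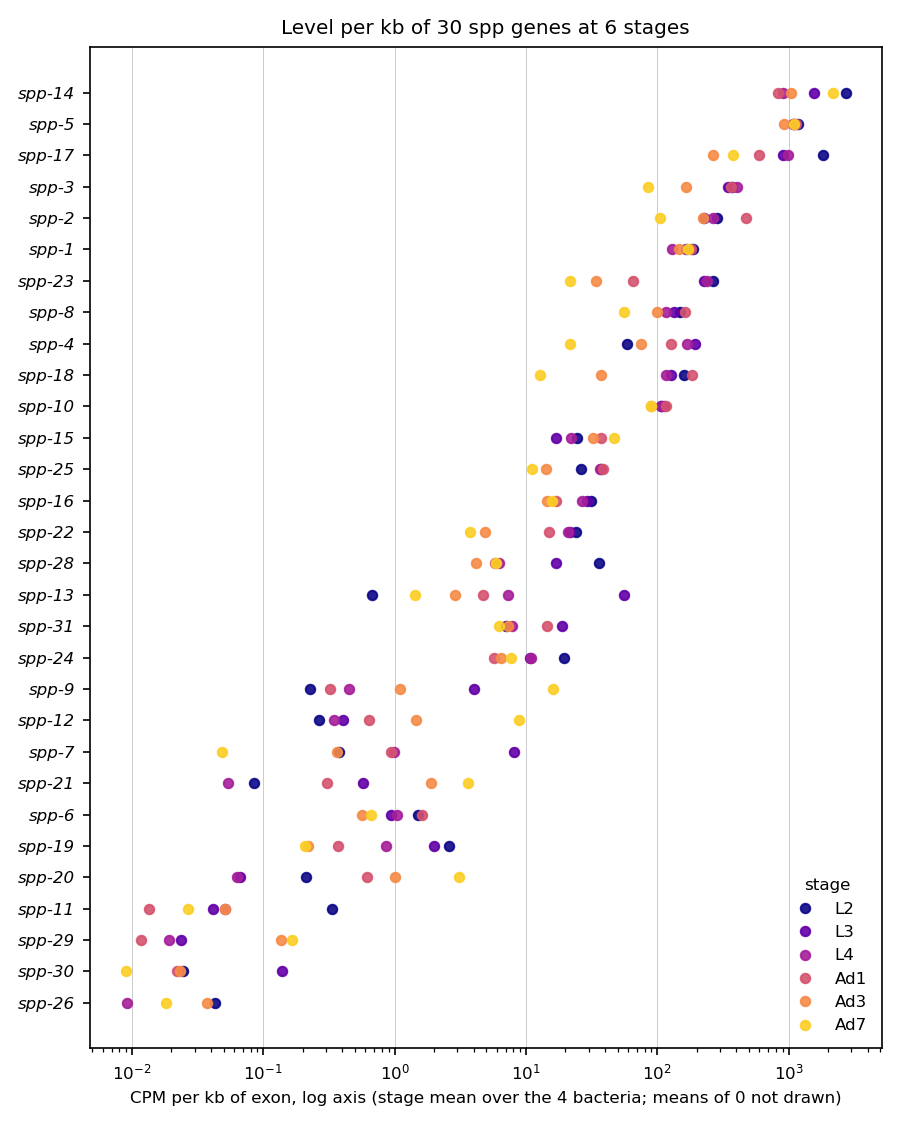
Level of the 30 spp members in CPM per kilobase of exon on a log axis, as means of the 4 diets at each stage, with members in order of their mean. The 5 members at the top, from spp-14 with 1545 to spp-2 with 264 CPM per kilobase, hold most of the family's signal, and spp-26, spp-29 and spp-30 lie at the bottom.

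Worms on each Ochrobactrum diet had more spp-5 and spp-3 RNA than worms on OP50 when all stages were compared in a single fit. On MYb71, 5 of 27 members were higher and none lower, against 1.61% of all genes tested higher and 3.04% lower. The higher members were spp-2, spp-3, spp-5, spp-17 and spp-18. On MYb65, spp-3, spp-5, spp-14 and spp-18 were higher and none was lower, where 2.28% of all genes were higher and 2.78% lower. On Mix, spp-3, spp-5, spp-14 and spp-17 were higher and none was lower, where 1.07% of all genes were higher and 1.75% lower. The median log2 fold change of the 27 members was 0.06 on MYb71, 0.24 on MYb65 and 0.06 on Mix, beside medians over all genes of -0.03, 0.00 and -0.03. All 3 comparisons share the OP50 libraries and so are not independent of each other. In them 15 members had a positive log2 fold change in each comparison, 7 a negative one in each (spp-7, spp-12, spp-13, spp-19, spp-22, spp-24 and spp-31) and 5 a mixed sign.

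**Figure D2:**
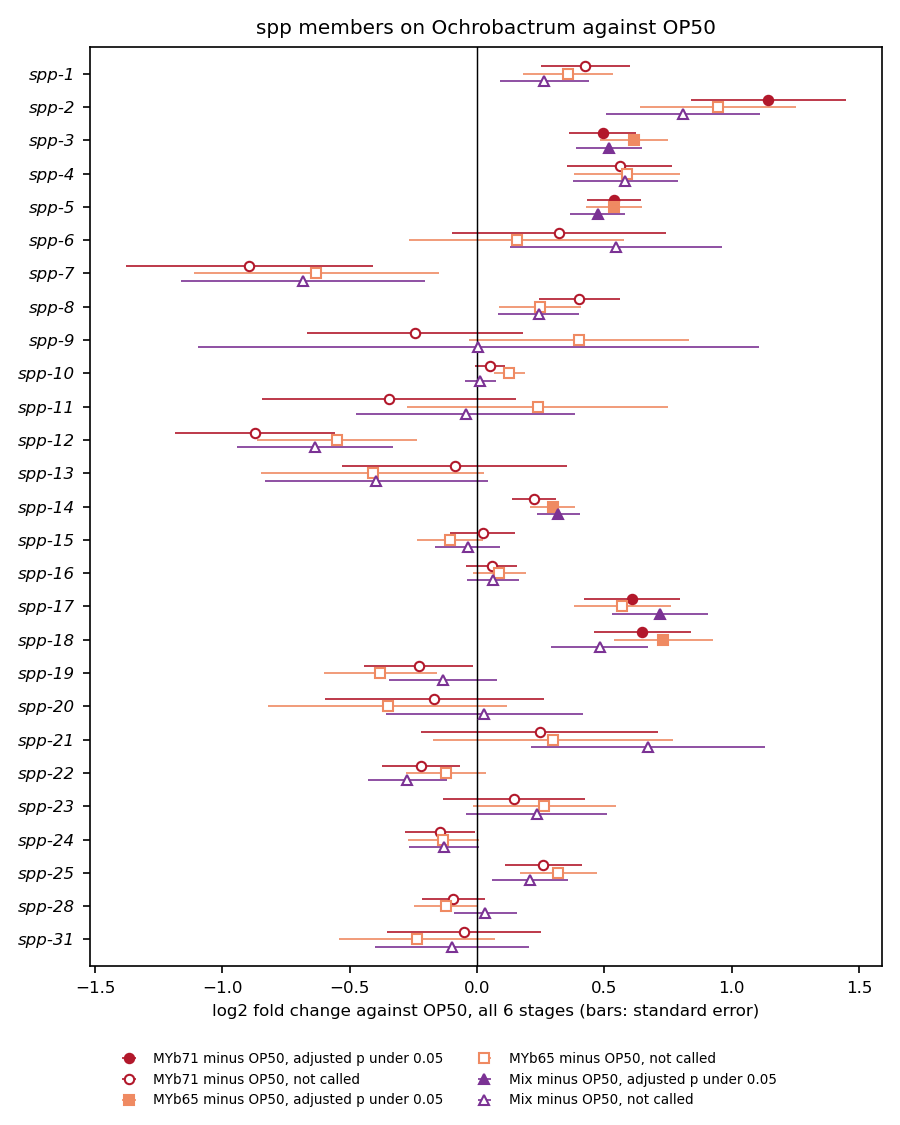
Log2 fold change of each of the 27 tested members on MYb71, MYb65 and Mix relative to OP50 over all stages, with bars of 1 SE and filled points for an adjusted p under 0.05 (edgeR quasi-likelihood test). Filled points, 5 on MYb71, 4 on MYb65 and 4 on Mix, all lie right of 0, and spp-3 and spp-5 are filled on all 3 diets.

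The count of called members depended on the libraries compared. It was 11 on MYb71, 8 on MYb65 and 8 on Mix with all 82 libraries, and 6, 6 and 4 in the 80 without the 2 OP50 libraries that went against their label. With the larval stages alone it was 0 on each diet, and without OP50 replicate 2 it was 1 on MYb71, 3 on MYb65 and 0 on Mix. Shares of all genes called in these settings are not given, so these counts do not say whether members moved apart from other genes.

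The member whose calls held under the most settings was spp-5, the last gene of the block on X, whose product is the pore-forming caenopore-5. At L2 its level was 377, 451 and 695 CPM on MYb71, 380.3 and 559.5 on MYb65 and 406, 433 and 487 on Mix, against 262, 254 and 460.4 on OP50. At L3 the values were 328, 435 and 739 on MYb71, 397, 464 and 405 on MYb65 and 483, 335 and 406 on Mix, against 202, 222 and 502 on OP50. At L4 they were 353, 476 and 477 on MYb71, 401, 492 and 399.9 on MYb65 and 422, 497 and 281 on Mix, against 377, 231 and 363 on OP50. At L2 and L3 all OP50 libraries but replicate 4 were below every Ochrobactrum library, and replicate 4 lay inside their range. At L4 the MYb65 libraries stood above OP50 and the others overlapped with it. At Ad1, spp-5 had 318, 553 and 519 on MYb71, 498, 505 and 352 on MYb65 and 450.2, 437 and 559 on Mix, against 268, 218 and 386 on OP50. At Ad3 it had 283, 349 and 416 on MYb71, 505, 438 and 350.2 on MYb65 and 371, 334 and 412 on Mix, against 217, 231 and 219.6 on OP50. At Ad7 it had 380.4, 326 and 503 on MYb71, 475, 358 and 464 on MYb65 and 393, 434 and 471 on Mix, against 332, 342 and 418 on OP50. Every library of the 3 Ochrobactrum diets lay above every OP50 library at Ad3, while at Ad7 the diets overlapped. Across stages spp-5 was higher by a log2 fold change of 0.54 on MYb71 (SE 0.11, adjusted p = 0.000388), 0.54 on MYb65 (SE 0.11, adjusted p = 0.00055) and 0.47 on Mix (SE 0.11, adjusted p = 0.00288), that is 1.45-, 1.45- and 1.39-fold. The calls on MYb71 and MYb65 were kept in all 14 fits that left out 1 replicate of a diet and in all 6 that left out a stage. The call on Mix was lost without Mix replicate 3 (adjusted p = 0.0607), OP50 replicate 1 (0.0617), OP50 replicate 2 (0.105), Ad1 (0.0622) or Ad3 (0.0941).

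The neighbour at the other end of the block, spp-3, encodes another gut caenopore. At L2 it had 101, 112 and 217 CPM on MYb71, 112 and 139.9 on MYb65 and 114, 124 and 162 on Mix, against 88.8, 90.9 and 136 on OP50. At L3 it had 103, 98.1 and 209 on MYb71, 108, 127 and 127 on MYb65 and 137, 119.5 and 141 on Mix, against 56.1, 71.8 and 127 on OP50. At L4 it had 145, 122 and 172 on MYb71, 149.8, 159.8 and 152 on MYb65 and 118, 190.2 and 88.9 on Mix, against 208, 56.7 and 102 on OP50. The larval groups overlapped, and OP50 replicate 1 at L4 was the highest library of its stage. At Ad1 the values were 109, 134 and 159 on MYb71, 147, 183 and 120.1 on MYb65 and 139.7, 134 and 154 on Mix, against 62.6, 59.6 and 102 on OP50. At Ad3 they were 50.5, 51.8 and 68.1 on MYb71, 105, 85.2 and 48.8 on MYb65 and 62.1, 60.3 and 57.9 on Mix, against 32.8, 39.5 and 24.8 on OP50. At Ad7 they were 22.8, 21.4 and 35.8 on MYb71, 33.0, 28.3 and 33.9 on MYb65 and 25.0, 39.0 and 33.1 on Mix, against 33.4, 23.9 and 22.2 on OP50. All Ochrobactrum libraries were above all OP50 libraries at Ad1 and at Ad3, and at Ad7 the diets overlapped at a low level. Across stages the log2 fold change was 0.49 on MYb71 (SE 0.13, adjusted p = 0.0134), 0.62 on MYb65 (SE 0.13, adjusted p = 0.00137) and 0.52 on Mix (SE 0.13, adjusted p = 0.0104). The MYb65 call was lost without Ad3 (adjusted p = 0.0799). The MYb71 call was lost without MYb71 replicate 4, where the log2 fold change was 0.23 (adjusted p = 0.331), without OP50 replicate 2 (0.128) and without L3 (0.0926), Ad1 (0.12) or Ad3 (0.0952). The Mix call was lost without Mix replicate 2 (0.0882) or 3 (0.0973), OP50 replicate 2 (0.141), L3 (0.068), Ad1 (0.167) or Ad3 (0.143).

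The second gene of the block, spp-2, had the largest log2 fold change of the called members and a wide spread. At L2 its level was 136, 161 and 117 CPM on MYb71, 141 and 241 on MYb65 and 207, 82.1 and 153 on Mix, against 56.9, 108 and 90.9 on OP50. At L3 it was 60.9, 246 and 349.8 on MYb71, 122, 134 and 47.6 on MYb65 and 94.5, 48.3 and 76.3 on Mix, against 18.1, 36.0 and 116 on OP50. At L4 it was 66.3, 312 and 36.2 on MYb71, 70.7, 377 and 27.8 on MYb65 and 97.0, 49.6 and 336 on Mix, against 101, 56.3 and 34.0 on OP50. Among the libraries compared, which leave out MYb71 replicate 3, the L2 values on MYb71 and MYb65 stood above OP50. With CPM scaled over all 82 libraries, that replicate had 74.5 CPM at L2, inside the OP50 range. At L4 a single library of each Ochrobactrum diet, over 300 CPM, stood far from the other libraries. At Ad1 spp-2 had 306, 383 and 334 on MYb71, 444, 123 and 288 on MYb65 and 71.9, 88.3 and 443 on Mix, against 30.8, 24.9 and 281 on OP50. At Ad3 it had 101, 143 and 131 on MYb71, 117, 152 and 84.7 on MYb65 and 156, 138 and 157 on Mix, against 47.7, 48.6 and 44.1 on OP50. At Ad7 it had 54.3, 44.2 and 62.7 on MYb71, 53.2, 43.9 and 58.3 on MYb65 and 37.8, 61.0 and 46.3 on Mix, against 75.3, 41.8 and 40.9 on OP50. At Ad3 no Ochrobactrum library reached down to the OP50 range, and at Ad1 OP50 replicate 3 lay inside the range of MYb65 and Mix while the other OP50 libraries were the lowest of the stage. Across stages spp-2 was higher on MYb71 by a log2 fold change of 1.14 (SE 0.31, adjusted p = 0.0148). Its log2 fold changes of 0.95 on MYb65 (adjusted p = 0.0544) and 0.81 on Mix (adjusted p = 0.183) did not pass. The MYb71 call was lost without MYb71 replicate 2 (adjusted p = 0.157), OP50 replicate 1 (0.0762), OP50 replicate 2 (0.0797), L3 (0.144) or Ad3 (0.0892).

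The most abundant member, spp-14 on X, showed the smallest change of those called. At L2 it had 909, 917 and 1159 CPM on MYb71, 924 and 1123 on MYb65 and 833, 990.4 and 1199.6 on Mix, against 728, 813 and 1074 on OP50. At L3 it had 577, 508 and 527 on MYb71, 562, 655 and 616 on MYb65 and 655, 598 and 593 on Mix, against 439.7, 461 and 511 on OP50. At L4 it had 271, 271 and 366 on MYb71, 352, 289 and 408 on MYb65 and 286, 395 and 221 on Mix, against 497, 214 and 305 on OP50. The L3 libraries on MYb65 and Mix were above all OP50 libraries, and at L4 OP50 replicate 1 was the highest of all. At Ad1 the values were 254, 292 and 384 on MYb71, 310.4, 332 and 272 on MYb65 and 395, 387 and 285 on Mix, against 233, 210.2 and 226 on OP50. At Ad3 they were 347, 395 and 429.6 on MYb71, 458, 432 and 339.5 on MYb65 and 369, 455 and 355 on Mix, against 324, 257 and 289 on OP50. At Ad7 they were 788, 629 and 955 on MYb71, 820.0, 661 and 829 on MYb65 and 716, 938 and 974 on Mix, against 541, 577 and 870.3 on OP50. Each Ochrobactrum library exceeded each OP50 library at Ad1 and Ad3, and the groups overlapped at Ad7. Across stages the log2 fold change was 0.22 on MYb71 (SE 0.09, adjusted p = 0.138), which did not pass, 0.30 on MYb65 (SE 0.09, adjusted p = 0.0291) and 0.32 on Mix (SE 0.09, adjusted p = 0.0184). With RLE scaling, another normalization, neither call passed (adjusted p = 0.0575 and 0.0562). Nor did they pass without OP50 replicate 2 (0.213 and 0.226), and the MYb65 call was also lost without any of MYb65 replicates 1, 2 or 3 (0.155, 0.0648 and 0.0567) and the Mix call without Mix replicate 2 (0.23). Of 29 alternative settings, the MYb65 call was lost in 11 and the Mix call in 10.

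On chromosome I, spp-17 (WBGene00005002, chrI:1016405-1017176) had levels on Ochrobactrum that, in the 71 libraries, lay apart from those on OP50 at L2 and Ad7. At L2 it had 647, 566 and 1397 CPM on MYb71, 633 and 694 on MYb65 and 538, 778 and 929.7 on Mix, against 325, 345 and 507 on OP50. At L3 it had 429.9, 244 and 310.1 on MYb71, 303, 405 and 338 on MYb65 and 487, 458 and 330.0 on Mix, against 153, 201 and 291 on OP50. At L4 it had 389.8, 182 and 542 on MYb71, 409, 197 and 479 on MYb65 and 266, 825 and 84.9 on Mix, against 561, 108 and 264 on OP50. Every Ochrobactrum library was above every OP50 library at L2, and at L4 libraries of 1 diet differed more than the diets did, most of all on Mix. At Ad1 spp-17 had 151, 231 and 193 on MYb71, 187, 339.6 and 137 on MYb65 and 335, 333 and 163 on Mix, against 195, 213 and 138 on OP50. At Ad3 it had 110.2, 97.3 and 111 on MYb71, 194, 123 and 47.0 on MYb65 and 83.7, 99.9 and 82.9 on Mix, against 74.6, 86.8 and 51.8 on OP50. At Ad7 it had 147, 157 and 173 on MYb71, 134, 127 and 138 on MYb65 and 171, 197 and 162 on Mix, against 33.8, 82.1 and 122 on OP50. The Ad7 groups of the libraries compared again did not overlap with OP50 on any Ochrobactrum diet. Replicate 3 of MYb71 and of MYb65 at Ad7 was set aside and does not enter this separation. With CPM scaled over all 82 libraries, they had 121 and 153 CPM. The MYb71 value lay just under the highest OP50 value, so the separation on MYb71 holds only without its replicate 3. Across stages the log2 fold change was 0.61 on MYb71 (SE 0.19, adjusted p = 0.044), 0.57 on MYb65 (SE 0.19, adjusted p = 0.0624), which did not pass, and 0.72 on Mix (SE 0.19, adjusted p = 0.0158). The MYb71 call was lost in 18 of 29 alternative settings, among them RLE scaling (0.0525), the replicate block (0.0852) and the fits without MYb71 replicate 1 (0.105) or 4 (0.198) or OP50 replicate 1 (0.0813), 2 (0.128) or 3 (0.0602). The Mix call was lost in 7 of 29. Among them were the fits without Mix replicate 2, where the log2 fold change was 0.50 (adjusted p = 0.299), and without OP50 replicate 2 (0.0865).

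The gene spp-18 on chromosome IV was set apart by single high OP50 libraries. At L2 it had 66.9, 94.7 and 101 CPM on MYb71, 66.9 and 110.2 on MYb65 and 68.6, 68.1 and 78.1 on Mix, against 34.9, 39.8 and 69.6 on OP50. At L3 it had 39.9, 96.9 and 98.4 on MYb71, 57.9, 93.7 and 44.9 on MYb65 and 64.1, 46.4 and 63.5 on Mix, against 14.2, 20.3 and 70.2 on OP50. At L4 it had 51.8, 78.9 and 51.5 on MYb71, 60.5, 88.0 and 43.8 on MYb65 and 62.2, 55.4 and 46.8 on Mix, against 21.5, 23.8 and 67.5 on OP50. At each larval stage the other OP50 libraries were lower than every Ochrobactrum library and 1, replicate 4 at L2 and L3, lay within the Ochrobactrum range. At Ad1 the values were 96.6, 96.4 and 113 on MYb71, 86.6, 92.0 and 59.3 on MYb65 and 86.6, 109 and 111 on Mix, against 26.0, 31.4 and 128 on OP50. At Ad3 they were 19.7, 15.3 and 17.3 on MYb71, 49.7, 20.5 and 9.95 on MYb65 and 15.2, 12.6 and 16.4 on Mix, against 7.70, 16.9 and 5.95 on OP50. At Ad7 they were 4.33, 5.22 and 5.19 on MYb71, 7.08, 5.27 and 7.77 on MYb65 and 4.998, 7.11 and 4.86 on Mix, against 7.24, 7.02 and 5.04 on OP50. At Ad1 OP50 replicate 3 was the highest library and the other OP50 libraries the lowest, so that no stage separated the groups. Across stages the log2 fold change was 0.65 on MYb71 (SE 0.19, adjusted p = 0.03), 0.73 on MYb65 (SE 0.19, adjusted p = 0.0136) and 0.48 on Mix (SE 0.19, adjusted p = 0.223), which did not pass. Without OP50 replicate 1 both calls were lost, with log2 fold changes of 0.43 on MYb71 (adjusted p = 0.369) and 0.52 on MYb65 (adjusted p = 0.157). The MYb71 call was also lost without OP50 replicate 2 (0.107) or MYb71 replicate 2 (0.185) or 4 (0.0779), and the MYb65 call without MYb65 replicate 1 (0.134) or 2 (0.0839). Of 29 alternative settings, the MYb71 call was lost in 12 and the MYb65 call in 8.

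**Figure D3:**
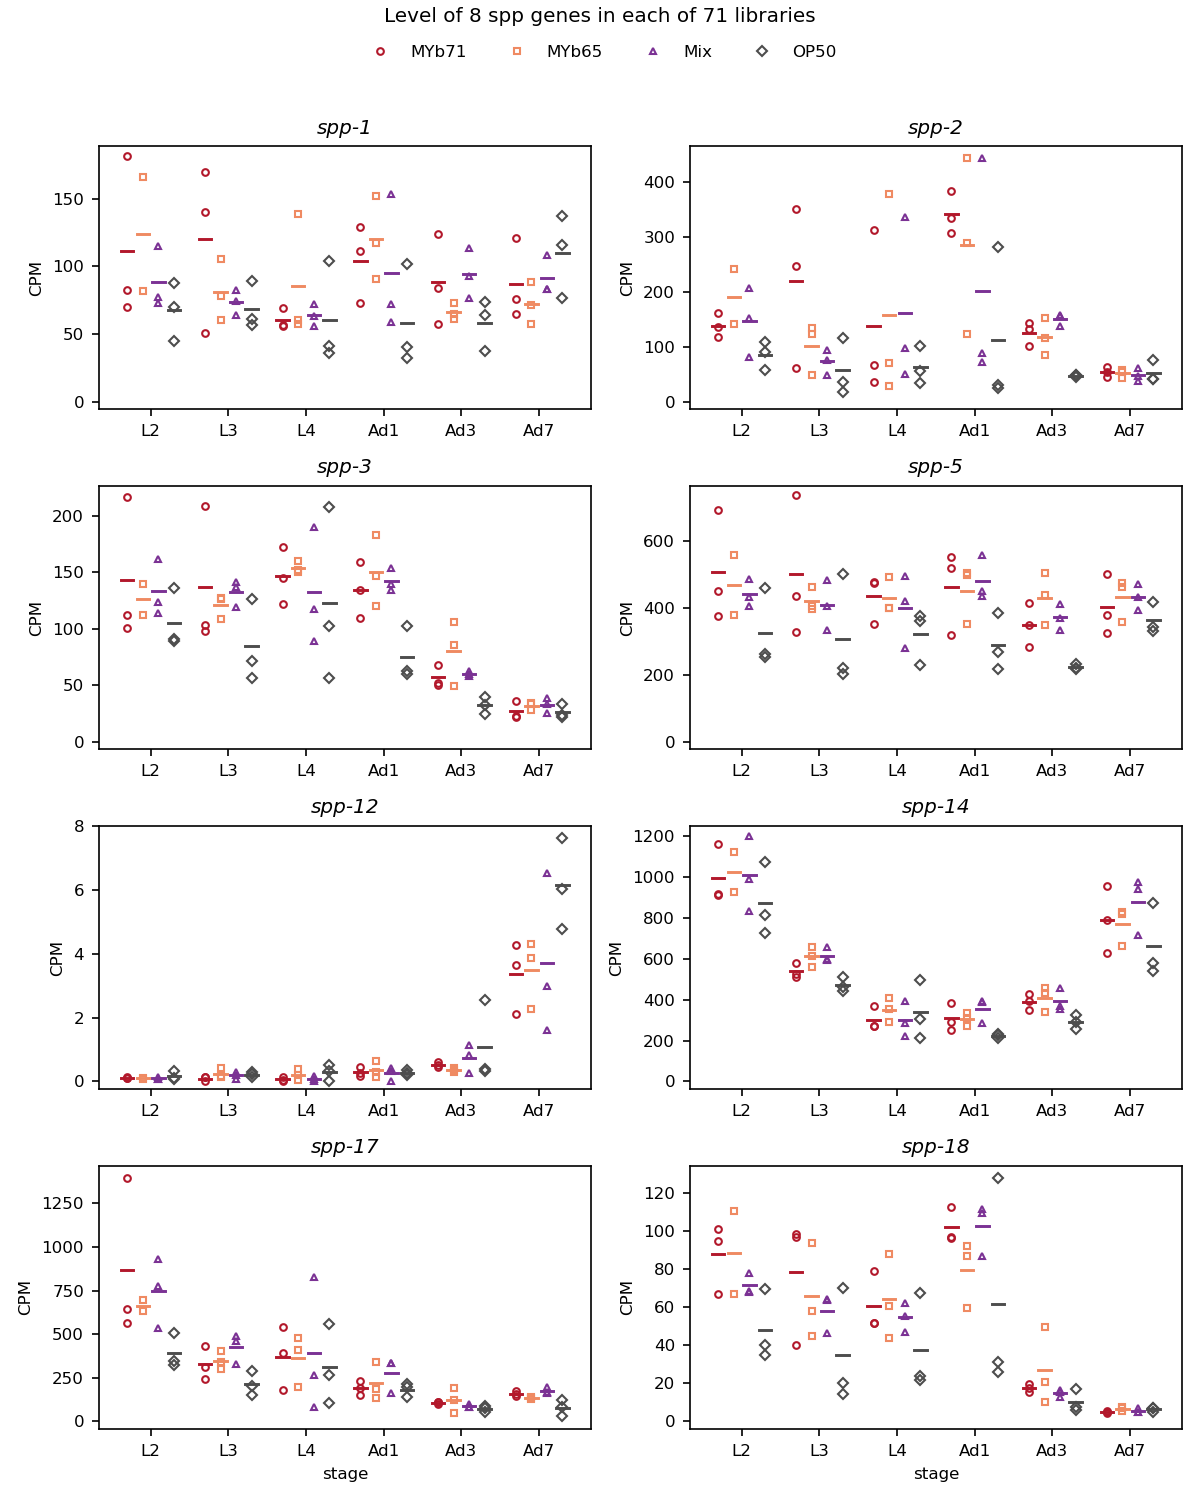
Level in CPM of spp-1, spp-2, spp-3, spp-5, spp-12, spp-14, spp-17 and spp-18 in each of the 71 libraries by stage, with 1 point per library and a bar for each group mean, and MYb71, MYb65 and Mix left of OP50. At Ad3 the Ochrobactrum libraries of spp-2 lie between 84.7 and 157 CPM, above the OP50 libraries at 44.1 to 48.6.

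Of the well studied members outside these calls, spp-1 encodes a gut antimicrobial protein. At L2 it had 70.0, 82.5 and 181 CPM on MYb71, 81.7 and 166 on MYb65 and 73.1, 77.0 and 115 on Mix, against 69.6, 45.0 and 87.9 on OP50. At L3 it had 50.6, 140.3 and 169.9 on MYb71, 105, 78.4 and 60.5 on MYb65 and 74.1, 82.3 and 64.3 on Mix, against 56.5, 60.9 and 88.8 on OP50. At L4 it had 55.9, 68.9 and 56.5 on MYb71, 60.5, 139 and 57.4 on MYb65 and 56.2, 63.2 and 71.9 on Mix, against 104, 36.2 and 40.9 on OP50. Replicate 4 on MYb71 at L2 and L3 and replicate 1 on OP50 at L4 were high, and the larval groups overlapped. At Ad1 spp-1 had 72.6, 129 and 111 on MYb71, 117, 90.4 and 152 on MYb65 and 72.3, 59.2 and 153 on Mix, against 40.7, 32.2 and 102 on OP50. At Ad3 it had 57.4, 124 and 83.6 on MYb71, 73.1, 60.8 and 64.9 on MYb65 and 76.8, 113 and 93.2 on Mix, against 73.4, 37.7 and 63.8 on OP50. At Ad7 it had 75.5, 64.5 and 121 on MYb71, 71.2, 57.4 and 88.3 on MYb65 and 109, 83.3 and 83.2 on Mix, against 137, 115 and 76.5 on OP50. The groups overlapped at all stages but for Mix against OP50 at Ad3. Across stages the log2 fold changes of 0.43 on MYb71, 0.36 on MYb65 and 0.26 on Mix did not pass (adjusted p = 0.18, 0.253 and 0.6). With all 82 libraries the MYb71 value was 0.49 with an adjusted p of 0.0171, and without MYb71 replicate 1 it was 0.64 (adjusted p = 0.0488).

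The other, spp-12, is known from pharyngeal neurons and from defence against Bacillus thuringiensis, and of these 8 genes it alone had a negative log2 fold change on all 3 Ochrobactrum diets. Through Ad1 none of the 71 libraries exceeded 1 CPM. Among those set aside, OP50 replicate 3 labelled L3 had 3.56 CPM, with CPM scaled over all 82 libraries. At Ad3 it had 0.464, 0.597 and 0.503 CPM on MYb71, 0.374, 0.297 and 0.414 on MYb65 and 0.273, 1.14 and 0.818 on Mix, against 2.55, 0.403 and 0.320 on OP50. At Ad7 it had 2.12, 3.65 and 4.28 on MYb71, 2.27, 3.87 and 4.30 on MYb65 and 2.97, 6.52 and 1.62 on Mix, against 4.78, 6.01 and 7.62 on OP50. Among the 71 libraries, those on OP50 at Ad7 were all above those on MYb71 and MYb65, and Mix spanned both ranges. Replicate 3 of MYb71 and of MYb65 at Ad7 was set aside and does not enter this separation. With CPM scaled over all 82 libraries, they had 4.69 and 8.51 CPM. The MYb65 value was above every OP50 library compared, so the separation on MYb65 holds only without its replicate 3. Across stages the log2 fold changes of -0.87 on MYb71, -0.55 on MYb65 and -0.64 on Mix did not pass (adjusted p = 0.104, 0.344 and 0.387). With all 82 libraries spp-12 was lower on MYb71 (log2 fold change -1.10, adjusted p = 0.0174) and Mix (-1.23, adjusted p = 0.0193), with the 2 OP50 libraries that went against their label included. Among the 71 libraries it was also lower on MYb71 without OP50 replicate 3 (-1.01, adjusted p = 0.0387).

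Summed over the 30 members, the family had a higher mean on each Ochrobactrum diet than on OP50 at all 6 stages, but the groups were apart at Ad3 alone. There the summed level was 1513 ± 157 CPM on MYb71, 1627 ± 360.1 on MYb65 and 1561 ± 78.1 on Mix, against 1023 ± 38.8 on OP50 (SD, n = 3 each). At L2 it was 3436 ± 939 CPM on MYb71, 3287 ± 539 on MYb65 (n = 2) and 3199 ± 471 on Mix, against 2372 ± 489 on OP50, with overlap between the groups. These sums rest largely on spp-14, spp-5 and spp-17.

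**Figure D4:**
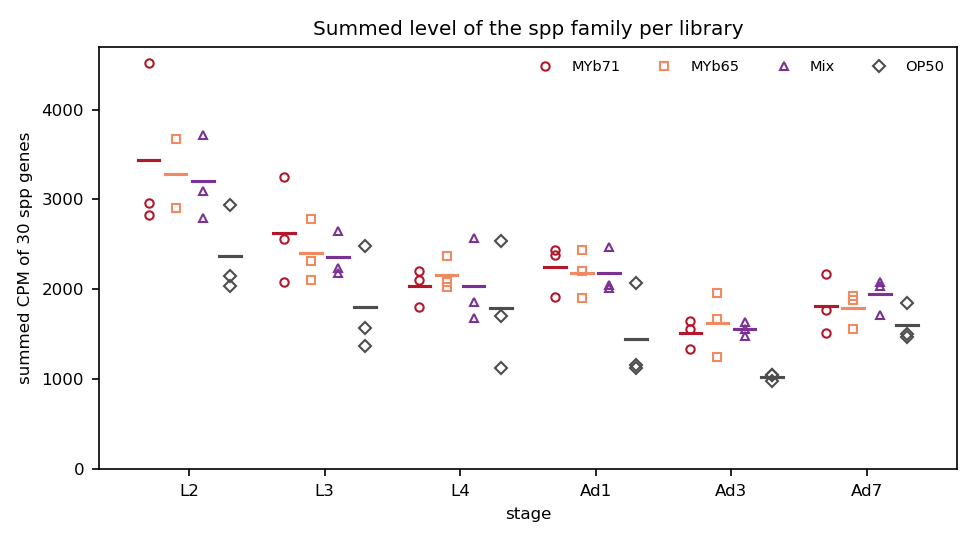
Summed CPM of the 30 spp members per library by stage, with 1 point per library and a bar for each group mean, and MYb71, MYb65 and Mix left of OP50. The groups separate from OP50 at Ad3, where OP50 averages 1023 CPM, and overlap at the other stages.

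Within single stages edgeR called few members, all of them at Ad3. At that stage, spp-2 was higher on MYb71 by a log2 fold change of 1.44 (SE 0.18, adjusted p = 0.0195), on MYb65 by 1.35 (SE 0.18, adjusted p = 0.0183) and on Mix by 1.71 (SE 0.18, adjusted p = 0.00508). The gene spp-5 was higher on MYb65 by 0.97 (SE 0.15, adjusted p = 0.0283). In all, 1 of 24 tested members was called on MYb71, 2 on MYb65 and 1 on Mix, where 0.134%, 0.24% and 0.0706% of all genes were called. An unadjusted p below 0.05 was reached by 6, 7 and 7 members on MYb71, MYb65 and Mix, and by 7.07%, 8.09% and 5.99% of all genes. DESeq2 called 5, 4 and 5 members at Ad3, where it called 1.36%, 1.76% and 1.5% of all genes. These were spp-2, spp-3, spp-5 and spp-14 on all 3 diets, and spp-8 on MYb71 and Mix, all higher. The intestine marker sum at Ad3 was 1610 to 1960 CPM on MYb71, 1470 to 3310 on MYb65 and 1610 to 1650 on Mix, against 616 to 2270 on OP50, and its part in these results was not tested. All of the edgeR calls rested on few libraries and on the fit. In the fit of all 24 groups spp-2 had an adjusted p of 1 on each diet at Ad3 and spp-5 on MYb65 one of 0.268. Without OP50 replicate 1, spp-2 had adjusted p of 0.119 on MYb71, 0.119 on MYb65 and 0.0637 on Mix, and spp-5 on MYb65 had 0.172. Without OP50 replicate 2 the spp-2 values were 0.0765 on MYb71 and 0.0638 on MYb65, and that of spp-5 was 0.074. The spp-2 call on MYb71 was also lost without MYb71 replicate 2 (0.0696) or 4 (0.104), that of spp-2 on MYb65 without MYb65 replicate 1 (0.0507), and that of spp-5 without MYb65 replicate 1 (0.0567) or 2 (0.119). Libraries of the other diets in the fit mattered as well. Without Mix replicate 1 the values were 0.0553 for spp-2 on MYb71 and 0.0592 for spp-5, which also missed the threshold without Mix replicate 2 (0.0597) or MYb71 replicate 2 (0.052).

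At the other stages edgeR called no member. At L2 it called 0.848%, 0.66% and 0.64% of all genes on MYb71, MYb65 and Mix. An unadjusted p below 0.05 was reached there by 7, 5 and 4 of 23 members and by 11.5%, 7.85% and 7.75% of all genes. DESeq2 called 2, 1 and 1 members at L2 (spp-8 on all 3 diets and spp-4 on MYb71) and 3.29%, 1.93% and 2.05% of all genes. The level of spp-8, a larger gene beside spp-10, at L2 was 201, 216 and 155 CPM on MYb71, 228 and 250.0 on MYb65 and 198, 212 and 218 on Mix, against 141, 134 and 135 on OP50, without overlap. That of spp-4, inside the block on X, was 22.6, 28.2 and 53.3 CPM on MYb71, 22.8 and 30.6 on MYb65 and 23.7, 21.8 and 33.9 on Mix, against 7.54, 7.22 and 18.3 on OP50, also without overlap. At L3 the unadjusted p was below 0.05 for 4, 2 and 2 of 23 members and 10.7%, 9.45% and 7.62% of all genes. There edgeR called 0.521%, 0.751% and 0.584% of all genes, and DESeq2 called 0 members and 2.86%, 2.57% and 1.94% of all genes. At L4 it was below 0.05 for 0, 0 and 0 of 21 members and 3.31%, 2.38% and 2.27% of all genes. There edgeR called 0.0821%, 0.0505% and 0.0316% of all genes, and DESeq2 called 0 members and 0.341%, 0.316% and 0.341% of all genes. At Ad1 it was below 0.05 for 4, 2 and 3 of 22 members and 3.58%, 3.28% and 2.45% of all genes. There edgeR called 0% of all genes on each diet, and DESeq2 called 0.606%, 0.339% and 0.248% of them, with spp-3 on MYb65 as the only member. Without OP50 replicate 3 at Ad1, which was high for spp-2 and spp-18, the calls summed over the 6 stages were 4 on MYb71, 4 on MYb65 and 2 on Mix. The share of all genes called in that setting is not given, so these counts do not say whether members moved apart from other genes. At Ad7 the unadjusted p was below 0.05 for 1, 4 and 5 of 23 members and 8.15%, 9.98% and 8.56% of all genes. There edgeR called 0.404%, 0.396% and 0.476% of all genes, and DESeq2 called 0 members and 1.07%, 1.33% and 1.37% of all genes.

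With the replicate number as a block, 5 members passed on MYb71 at L2, where same-numbered libraries on MYb71 and OP50 deviated together and 1.39% of all genes were called. In that fit spp-4 on MYb71 had a log2 fold change of 1.74 (adjusted p = 0.00082), spp-17 of 1.11 (adjusted p = 0.0242), spp-18 of 0.96 (adjusted p = 0.0453), spp-23 of 1.09 (adjusted p = 0.0204) and spp-5 of 0.69 (adjusted p = 0.05). At L3, where the numbers on MYb71 and OP50 also went together, spp-3 on MYb71 had 0.81 (adjusted p = 0.0487) with the block, where 0.674% of all genes were called. At Ad3 the numbers on the Ochrobactrum diets and on OP50 did not go together, and of the 4 calls at that stage the block left that of spp-2 on Mix.

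No member was called between the isolates or between their mixture and its parts. Between MYb71 and MYb65, edgeR called 0.0653% of all genes and 0 of 27 members. An unadjusted p below 0.05 was reached by 0 members and 4.24% of all genes, and DESeq2 called 0 members and 0.0926% of all genes. The difference of MYb71 minus MYb65 was 0.00 for spp-5 on the log2 scale (95% interval -0.21 to 0.21) and -0.12 for spp-3 (-0.38 to 0.14), while for spp-2 it was 0.20 with a wide interval of -0.40 to 0.79. Between Mix and the mean of its single isolates, 0.0109% of all genes and 0 members were called. An unadjusted p under 0.05 was reached by 0 members and 3.96% of all genes, and DESeq2 called 0 members and 0.0163% of all genes. Here spp-5 differed by -0.06 (-0.25 to 0.12) and spp-3 by -0.04 (-0.26 to 0.19).

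Whether the difference between Ochrobactrum and OP50 itself changed between larvae and adults was tested in a fit of all 24 groups. It called 0.643% of all genes and 0 of 27 members by edgeR. An unadjusted p below 0.05 was reached by 5 members and by 11.1% of all genes, and DESeq2 called 0 members and 0.948% of all genes. In larvae, in that fit, the mean of the Ochrobactrum diets was above OP50 by 0.48 for spp-5 (adjusted p = 0.0187) and 0.80 for spp-18 (adjusted p = 0.0251) on the log2 scale. With the larval libraries fitted alone, neither passed on any single diet, with adjusted p on MYb71, MYb65 and Mix of 0.115, 0.321 and 0.459 for spp-5 and 0.0533, 0.126 and 0.356 for spp-18. In adults it was above by 0.70 for spp-3 (adjusted p = 0.00674), 0.56 for spp-5 (adjusted p = 0.0157) and 0.43 for spp-14 (adjusted p = 0.0159). Shares of all genes called in larvae and in adults are not given, so these calls do not say whether members moved apart from other genes. The adult minus larval difference was 0.08 for spp-5 (95% interval -0.29 to 0.45), 0.30 for spp-3 (-0.12 to 0.73) and -0.35 for spp-18 (-0.98 to 0.27).

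More members passed between stages than between diets. Over the 5 steps between neighbouring stages, 26 of the 27 members changed at least once, where 98.2% of all genes did, and spp-1 changed at none. The stage of the highest mean level was L2 for 11 members, L3 for 4, L4 for 1 (spp-3), Ad1 for 6, Ad3 for 0 and Ad7 for 5. The L2 group includes spp-14, spp-17, spp-19, spp-22, spp-23 and spp-28, and the Ad7 group is spp-9, spp-12, spp-15, spp-20 and spp-21. The steadiest members were spp-5, whose stage means differed by 1.27-fold, and spp-10, a gene of 11 exon blocks, by 1.3-fold. Stage libraries were compared over all diets together, and the fall of the intestine marker sum with age stands beside these steps, its part not tested.

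**Figure D5:**
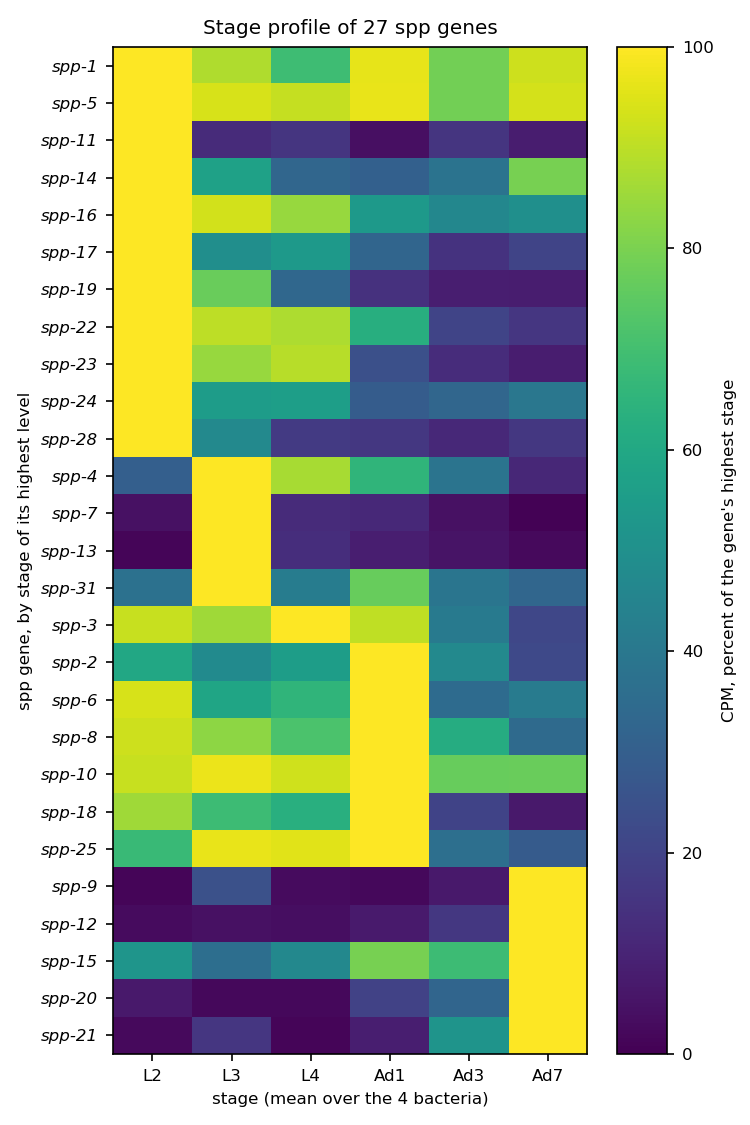
Mean level of the 27 tested members at L2, L3, L4, Ad1, Ad3 and Ad7, each as a percent of its own highest stage and averaged over the 4 diets, with members in order of that stage. 11 members peak at L2, 6 at Ad1 and 5 at Ad7, and none peaks at Ad3.

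At L3 relative to L2, 7 members rose and 6 fell, where 24.3% of all genes rose and 32.7% fell. The largest rise was that of spp-13 with a log2 fold change of 6.34 (SE 0.67, adjusted p = 1.84e-12), followed by spp-7 with 4.44 (SE 0.62, adjusted p = 8.22e-09) and spp-9 with 3.92 (SE 0.58, adjusted p = 3.49e-08). The mean of the diets for spp-13 was 37.3 CPM at L3, against 0.453 at L2. Libraries of 1 diet differed widely there, with 5.96, 40.5 and 85.0 CPM on MYb71, 40.4, 79.9 and 8.97 on MYb65 and 37.8, 4.93 and 9.11 on Mix, against 7.89, 33.9 and 93.0 on OP50 at L3, and the same held for spp-7 with 1.56, 9.90 and 7.42 on MYb71, 12.7, 16.5 and 3.78 on MYb65 and 14.2, 1.47 and 3.52 on Mix, against 3.66, 14.3 and 14.9 on OP50. The falls were led by spp-11 with -2.71 (SE 0.53, adjusted p = 1.39e-05), spp-28 with -1.09 (SE 0.15, adjusted p = 5.98e-09) and spp-17 with -1.02 (SE 0.24, adjusted p = 0.000173).

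At L4 relative to L3, 1 member rose and 8 fell, where 43.1% of all genes rose and 38.5% fell. The falls were led by spp-21 (-3.10, SE 0.76, adjusted p = 0.000188), spp-7 (-2.98, SE 0.55, adjusted p = 1.44e-06) and spp-9 (-2.98, SE 0.51, adjusted p = 2.98e-07). The single rise, spp-15 with 0.39 (SE 0.16, adjusted p = 0.0226), was lost in 10 alternative settings, such as without Mix replicate 3 (0.283). In the fit of 24 groups spp-21 had an adjusted p of 1, and its counts were 0 in all OP50 libraries at L3 and L4.

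At Ad1 relative to L4, 7 members rose and 7 fell, where 31.7% of all genes rose and 33.1% fell. The rises were led by spp-20 (3.01, SE 0.66, adjusted p = 6.38e-05), spp-21 (2.24, SE 0.82, adjusted p = 0.014) and spp-31 (0.88, SE 0.37, adjusted p = 0.035). The falls were led by spp-23, the neighbour of spp-17 (-1.90, SE 0.35, adjusted p = 2.88e-06), spp-11 (-1.62, SE 0.73, adjusted p = 0.0452) and spp-19 (-1.21, SE 0.27, adjusted p = 6.38e-05). The spp-31 and spp-11 calls were each lost in 10 alternative settings, such as without MYb65 replicate 4 (spp-31, 0.16) and without Mix replicate 1 (spp-11, 0.449), and that of spp-21 without OP50 replicate 3 (0.0877). With RLE scaling 4 members rose and 7 fell, where 5548 of all genes rose and 6483 fell. With TMM scaling 5819 of all genes rose and 6076 fell. Both spp-20 and spp-21 had 0 counts in 9 of the 12 libraries at L4, and their fitted fold changes are not bounds.

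At Ad3 relative to Ad1, 15 members fell and 4 rose, where 35.6% of all genes fell and 17.7% rose. With RLE scaling 11 were lower and 4 higher, the median of all genes was -0.23 with TMM and -0.11 with RLE scaling, and rises made up 33.2% of all calls with TMM and 45.5% with RLE scaling. The falls were led by spp-18 (-2.37, SE 0.24, adjusted p = 4.39e-12), spp-22 (-1.61, SE 0.20, adjusted p = 6.83e-10) and spp-6 (-1.47, SE 0.51, adjusted p = 0.0133). For spp-18 the mean of the diets was 17.3 CPM at Ad3, against 86.3 at Ad1. The rises were led by spp-21 (2.52, SE 0.54, adjusted p = 9.68e-05), spp-9 (1.80, SE 0.55, adjusted p = 0.00494) and spp-12 (1.11, SE 0.37, adjusted p = 0.00966), and the spp-12 call was lost without OP50 replicate 1 (0.102). The spp-6 call was lost without OP50 replicate 3 (0.0679).

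At Ad7 relative to Ad3, 6 members rose and 5 fell, where 7.91% of all genes rose and 9.02% fell. The rises were led by spp-9, whose promoter is used to report signalling of the TGF-beta ligand DBL-1, which represses it (3.73, SE 0.48, adjusted p = 1.22e-08), by spp-12 (2.60, SE 0.34, adjusted p = 2.8e-08) and by spp-20 (1.64, SE 0.45, adjusted p = 0.006). At Ad7 spp-9 had 2.12, 4.25 and 4.89 CPM on MYb71, 4.99, 13.4 and 9.02 on MYb65 and 8.77, 14.6 and 2.34 on Mix, against 1.61, 3.53 and 2.52 on OP50. All MYb65 libraries compared were above the OP50 libraries at this stage, and MYb71 and Mix overlapped with OP50. MYb65 replicate 3 at Ad7 was set aside and does not enter this separation. With CPM scaled over all 82 libraries it had 0.906 CPM, under every OP50 library compared. The falls were led by spp-7 (-2.75, SE 0.82, adjusted p = 0.0114), spp-4 (-1.67, SE 0.26, adjusted p = 1.3e-06) and spp-18 (-1.45, SE 0.24, adjusted p = 5.51e-06). The mean of the diets for spp-14 was 775 CPM at Ad7, against 371 at Ad3, so that the most abundant member rose while the block genes spp-3 and spp-4 fell.

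Over the 24 means of diet and stage, the closest pair of members was spp-3 and spp-18 with a correlation of 0.97, followed by spp-7 and spp-13 with 0.94 and spp-19 and spp-28 with 0.93. These group means share stages and libraries, and the values describe likeness of profile alone.

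Of the listed regulators and lysosomal genes of sphingolipid breakdown, few regulators and some lysosomal genes passed on Ochrobactrum. The paper names spp-3 and spp-5 as targets of ELT-2, but links of the listed genes to the spp genes were not tested here. Among 20 regulators of gut identity and immunity, the only call was pqm-1, a transcription factor of stress and metabolic genes, which was higher on MYb65 by a log2 fold change of 0.54 (adjusted p = 0.016). None was lower. The intestinal GATA factor gene elt-2 had 0.08 on MYb71, 0.07 on MYb65 and 0.18 on Mix, none of which passed. Of 13 tested lysosomal genes, 3 were higher on MYb71, 2 on MYb65 and 2 on Mix, and none lower. Of all genes, 1.61%, 2.28% and 1.07% were higher and 3.04%, 2.78% and 1.75% lower on these diets. The acid ceramidase-like gene asah-2 was higher by 1.04 on MYb71 (adjusted p = 2.06e-06), 0.95 on MYb65 (adjusted p = 1.75e-05) and 0.85 on Mix (adjusted p = 0.00013). The glucosylceramidase gene gba-4 was higher by 1.12 on MYb71 (adjusted p = 0.000916), 1.26 on MYb65 (adjusted p = 0.000165) and 1.26 on Mix (adjusted p = 0.000145), and asah-1 by 0.68 on MYb71 (adjusted p = 0.00821). The median log2 fold change of these 13 genes was 0.13 on MYb71, 0.15 on MYb65 and 0.02 on Mix.

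Of the marker lists, that of the intestine held 1 call on MYb71 and 2 on MYb65. The gut esterase gene ges-1 had a log2 fold change of 0.40 on MYb71 (adjusted p = 0.00476) and 0.39 on MYb65 (adjusted p = 0.00651), and the aspartic protease gene asp-1 had 0.70 on MYb65 (adjusted p = 0.000904). No intestine marker passed on Mix. Of those that passed on no diet, cpr-6 had -0.28, -0.20 and -0.32 on MYb71, MYb65 and Mix, and pgp-1 had -0.14, -0.16 and -0.38. The marker act-5 had -0.20, 0.02 and -0.01, while elt-2 and ifb-2 were positive on each Ochrobactrum diet. Of the 4 sperm markers, msp-10 was higher on MYb65 by 2.01 (adjusted p = 0.016), with 0 counts in 16 of the 71 libraries. Markers of body wall muscle, pharynx, neurons, hypodermis, germline, oocyte and eggshell, yolk and embryos held 0 calls on any diet. Their part in the spp results was not tested.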

How the data were processed

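Polyadenylated RNA of whole worms was sequenced for 82 libraries of 4 diets and 6 stages. The authors mapped the reads to WormBase release WS235 with STAR 2.5.3a (version from the submitters' processing notes), counted reads per gene with HTSeq and deposited raw counts per gene, neither normalized nor filtered. The sources used here do not say how reads with several matches were handled. Symbols (43693 identifiers had one) and coordinates come from the WBcel235 annotation of Ensembl release 115. No sequence is shown.

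Libraries were grouped by their labels. In 2 MYb65 libraries, L3 replicate 3 and L4 replicate 3, the title names another stage than the time point label, which was used. Replicate 3 was set aside wherever a group had 4 libraries, which left 71 of 82. No 2 libraries of a group were copies of each other, since the chi-square per gene was at least 7.76 in each of 103 pairs.

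From the counts, all tests were run with edgeR 4.0.16 in R 4.3.3 (quasi-likelihood, robust, TMM scaling, filterByExpr with a minimum count of 10, minimum total of 15 and share of 0.7), over all genes, with Benjamini-Hochberg adjustment and a threshold of 0.05. A fit of stage and diet gave the comparisons across stages and between neighbouring stages, a fit per stage those within stages, and a fit of 24 groups the larval and adult difference. CPM used TMM library sizes, and levels per kilobase the exonic length. Intervals are estimates plus or minus 1.96 SE. Tests were first checked on simulated counts. DESeq2 1.42.0, RLE scaling, no filter, all 82 libraries, other fits, and each replicate or stage left out were alternatives.

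Same-numbered libraries were taken as pairs where, in each of 3 pairs, deviations from the group means correlated above 0.1. This held for MYb71 with OP50 at L2 and L3, MYb65 with OP50 at L4, and MYb71 with MYb65 at Ad3 and Ad7. Diets that shared 2 numbers at a stage could not meet this rule, even with both correlations above 0.1. The median over 84 pairs was 0.0563.

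Values in every library are given for members that passed across stages against OP50 and for spp-1, spp-3, spp-5 and spp-12, with further libraries of other members where a call of edgeR or DESeq2 or a wide spread is described, chosen after their values were seen. Members that passed a comparison within stages, of the isolates, of Mix with them or of adults with larvae are named, and for each stage step the 3 largest rises and falls. Lists of regulators, lysosomal sphingolipid genes and cell type markers (intestine, body wall muscle, pharynx, neuron, hypodermis, germline, sperm, oocyte and eggshell, yolk, embryo) name genes that passed. The members, lists and tests were chosen with earlier results of these data known.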

Additional observations from a re-analysis of the deposited data

Results flagged for a closer look

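With all 82 libraries counted and CPM scaled over them, 11 groups held 4 libraries, and 8 members in these groups gave 88 sets of 4 values. In 10 of the sets, from 7 members and 8 libraries, a value stood far from the other 3, with a gap above 0.829 of the set's range. Chance gives about 1 in 20 sets, but members share libraries, and the sets are not independent. On MYb71 at L2, replicate 4 was high for spp-1 (182 CPM, others 70.2 to 82.6), spp-3 (217, others 101 to 118) and spp-14 (1160, others 912 to 949). On MYb71, spp-2 was 312 CPM in replicate 2 at L4 (others 35.3 to 66.4), spp-5 was 318 in replicate 1 at Ad1 (others 519 to 553) and spp-17 was 185 in replicate 3 at Ad3 (others 97.3 to 111). On OP50 at L3, spp-5 was 502 CPM in replicate 4 (others 202 to 223). For spp-12, replicate 3 stood apart in several groups, with 3.56 CPM on OP50 at L3 (others 0.134 to 0.293), 0.412 on MYb71 at L2 (others 0.0963 to 0.144) and 1.38 on MYb65 at Ad3 (others 0.297 to 0.414). The OP50 library at L3 is one of those closest to another stage, Ad7.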

How the results depend on the processing

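Of the counts of called members across stages (5 on MYb71, 4 on MYb65 and 4 on Mix), those with all 82 libraries were 11, 8 and 8. Without L2 they were 3, 2 and 2, without L3 1, 2 and 1, and without Ad3 1, 1 and 1. Without Ad1 they were 3 on MYb71 and 1 on Mix, and without Ad7 2 on Mix. With the larval stages alone, chosen after the data were seen, they were 0, 0 and 0, and with the adult stages alone 2 on MYb71. Leaving out 1 replicate of a diet gave 1 to 6 on MYb71, 2 to 6 on MYb65 and 0 to 5 on Mix. Within stages (1, 2 and 1 calls), DESeq2 gave 7, 6 and 6, the replicate block 6, 5 and 3, the fit without Mix 0 and 0 on the isolates, and the fit of 24 groups 0 on MYb71 and 1 on MYb65. Leaving out 1 library there gave 0 to 4 on MYb71, 0 to 4 on MYb65 and 0 to 2 on Mix, the lowest without OP50 replicate 1 at Ad3. Where the replicate numbers were not taken as pairs, the block within stages gained spp-4, spp-5, spp-17 and spp-25 on MYb65 and spp-4 on Mix at L2, spp-3 on Mix at L3, all higher, and spp-1, lower on MYb65 at Ad7 (log2 fold change -0.93, adjusted p = 0.0313). For MYb65 with OP50, the 2 pairs at L2 (0.231 and 0.288) and at Ad7 (0.144 and 0.147) all correlated above 0.1. They were too few for the rule of 3 pairs, so pairing there was left undecided. The block lost spp-2 on MYb71 (adjusted p = 0.0865) and MYb65 (0.0727) and spp-5 on MYb65 (0.197) at Ad3. The fit of 24 groups lost all 4 calls at Ad3 and gained spp-21 on MYb65 and Mix at L3, where OP50 libraries held 0 counts. The replicate block left the counts across stages within 1.5 times their value, with spp-2 passing on MYb65 (log2 fold change 1.23, adjusted p = 0.0186) and spp-17 not passing on MYb71 (0.59, adjusted p = 0.0852). In OP50 libraries alone, 3 members passed from L2 to L3 (13 over all diets), 2 from L3 to L4 (9), 5 from L4 to Ad1 (14), 1 from Ad1 to Ad3 (19) and 0 from Ad3 to Ad7 (11), with far fewer libraries, and spp-21 gave no value there at L4. With 1 replicate left out these counts over all diets were 13 to 15, 8 to 11, 10 to 15, 14 to 19 and 10 to 12. No comparison of MYb71 with MYb65, of Mix with the isolates or of adults with larvae called a member under any alternative run, and no called value changed its sign. Members near 0 CPM, such as spp-11, spp-20 and spp-21, rest on few counts. Where no share of all genes stands beside a count, that count does not say whether members moved apart from other genes.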
